A study of Mus musculus with 2 samples.

Results

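Genes that encode the pore-forming and auxiliary subunits of ion channels were read from expression arrays of mouse pancreatic islets. The genes were those whose symbol, as the only one given for a probe set, belongs to the potassium (Kcn), voltage-gated calcium (Cacna, Cacnb, Cacng), sodium (Scn), TRP (Trpc, Trpm, Trpv), chloride (Clcn) and pacemaker (Hcn) channel families or to the calcium release channels of the endoplasmic reticulum (Ryr, Itpr). They numbered 152 of the 18193 genes with such a probe set and were read by 325 probe sets. The symbol pattern also took in 4 genes that encode no channel subunit: the antisense transcripts Kcnq1ot1, Kcnmb4os1 and Kcnmb4os2, and Trpc4ap, an adaptor protein that binds a TRP channel.

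The transgenic sample came from male mice aged 6 weeks with overexpression of miR-141 and miR-200c, which are microRNAs, and the control sample from C57BL/6 males of the same age. The title of the former contains the letters Rip, a usual short form of the rat insulin promoter, which is active in beta cells, but the labels do not spell out which promoter drives the transgene. Islets were not treated after isolation, and total RNA was hybridised to 1 array per genotype. The number of mice behind each sample is not stated. With 1 array per genotype no difference below has an error, a p-value or a replicate check, and higher and lower describe these 2 arrays only.

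Values are log2 RMA values, which carry no detection call. The median of all values, 5.76, served as a floor: a gene reached the median signal when its probe set was at or above 5.76. A difference is always the transgenic minus the control log2 value, and the size rules were 2-fold (a log2 difference of 1) and 1.5-fold (0.58). A probe set's level depends on how well its probes bind, so levels are compared between the arrays and not between genes.

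Beta cells release insulin by electrical activity. Glucose metabolism closes ATP-sensitive potassium channels, the membrane depolarises, voltage-gated sodium and calcium channels open, and calcium entry starts exocytosis. Voltage- and calcium-gated potassium channels then repolarise the membrane, TRP channels carry background depolarising currents, and the channels of the endoplasmic reticulum release stored calcium.

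The microRNAs that the transgenic mice overexpress recognise messenger RNAs mainly through the seed. The mature sequences of their 3p arms are shown because they are what differs by design between the samples. They were taken from RefSeq, build GRCm38.p6, at chr6:124717917-124717938 and chr6:124718324-124718346, both on the minus strand, and capitals mark the seed, bases 2 to 8 from the 5′ end.
mmu-miR-141-3p: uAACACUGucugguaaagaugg
mmu-miR-200c-3p: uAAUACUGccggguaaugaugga
The seeds are not identical, so the microRNAs fall into separate seed groups. Their own level was not analysed here.

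The labelled tissue was checked against marker genes. All 10 beta cell markers reached the median signal, among them Ins2, at 14.95 on the transgenic array and 15.02 on the control array, and the summed linear signal of the list was 105369 against 103406. Of the 10 differences 4 were positive, the median was -0.04 and Ucn3, a marker of mature beta cells, was lower by the 1.5-fold rule (-0.81). The 4 alpha cell markers with a value all reached the median signal, 1 difference was positive, and their sum was 0.898 times that of the control. Markers of acinar cells, which make digestive enzymes, also reached it (4 of 4 with a value, 1.12 times the control sum). Among the 10 macrophage markers, 9 differences were positive, 7 of them past the 1.5-fold rule. The summed macrophage signal was 7201 on the transgenic array and 4849 on the control array. Of 8 stellate cell and pericyte markers 7 reached the median signal, Col1a1 did not, and the sum was 6909 against 3730. The sums of the endothelial list were 3700 and 3457, and those of the Schwann cell and neuron list 2791 and 2877, where S100b was below the median signal. Snap25, at 11.01 and 11.09, makes up most of the Schwann cell and neuron sums, so they say little about the other genes. Of the 6 genes of that list at the floor 3 had positive differences, the largest Cdh19 at 1.63. In whole islets a change in the number of cells of a type and a change in RNA per cell cannot be told apart.

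Of the 152 channel genes 79 (52.0%) reached the median signal on at least 1 array, against 66.7% of all genes, and 67 (44.1%) reached it on both, against 63.1%. Of the 325 probe sets 122 (37.5%) did so on at least 1 array, and 99 on both. The upper quartile of all values, 7.81, was reached on at least 1 array by 21 channel genes (13.8%), against 41.2% of all genes.

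These 21 held genes from each step of the electrical cycle. Kcnj11, the pore of the ATP-sensitive potassium channel, was among them, as were Kcnk16 and Kcnk1, tandem-pore channels that carry potassium leak. The pore gene Kcnh2, a repolarising potassium channel, and the pore gene Kcnma1 of the large-conductance calcium-activated channel also belonged, with its auxiliary subunit Kcnmb2. Cacna1d and Cacna2d1 stood for the calcium channels, Scn9a for the sodium channels, Trpc1, Trpm5 and Trpm7 for the TRP channels, Clcn3, Clcn4 and Clcn5 for the chloride transporters and Itpr2 and Itpr3 for calcium release. The others were Kcnn4, Kcnip1, Kcnu1 and the adaptor Trpc4ap. Kcnu1 encodes a potassium channel known from mouse sperm. Kcnn4, Kcnu1 and Itpr2 reached 7.81 on the transgenic array only, and Scn9a on the control array only.

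By family, the number of genes that reached the median signal on at least 1 array was as follows. All 7 Clcn genes and both Hcn genes with a value did, but of the inward rectifiers (Kcnj) only 3 of 15: Kcnj11, Kcnj4 and Kcnj12. None of the 3 ryanodine receptors reached it, while both inositol trisphosphate receptors with a value did. Of the voltage-gated potassium pores 14 of 31 reached it, of the potassium auxiliary subunits 9 of 15 and of the tandem-pore genes 7 of 12. The calcium channel pores gave 6 of 9, and the genes grouped by symbol as their auxiliary subunits (Cacna2d, Cacnb, Cacng) 7 of 15. Among these were 3 of the 8 Cacng genes, whose place in calcium channels was taken from the symbol only. The sodium channels gave 4 of 8 pores and 1 of 3 auxiliary genes. Of 18 TRP genes 12 reached it, 4 of 6 canonical, 6 of 8 melastatin and 2 of 4 vanilloid. Fewer reached it on both arrays, among them 5 of 7 Clcn genes, 11 of 31 voltage-gated potassium pores and 9 of 18 TRP genes. Clcn1 (5.81 transgenic, 5.72 control) and Clcn2 (5.74 and 5.79) lay close to the floor and reached it on 1 array only.

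**Figure D1:**
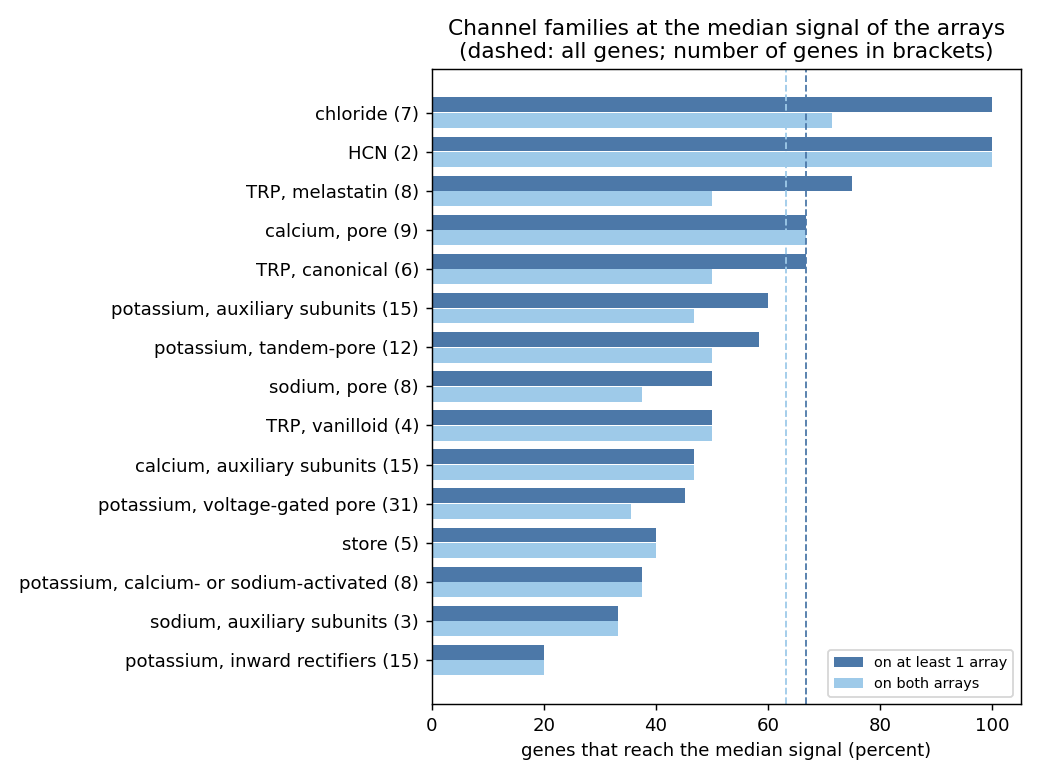
Share of the genes of each channel family that reach the median signal of 5.76 on at least 1 array (dark bars) and on both arrays (light bars), in percent, with the number of genes in brackets and dashed lines for all genes (66.7% and 63.1%). The chloride genes are at 100% on at least 1 array, and the inward rectifiers, at 20.0%, are the shortest bars.

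Most channel genes differed by less than 1.5-fold between the arrays. Their median difference was 0.03, the same to 2 decimals as over all 12143 genes at the floor, and 40 of 79 were positive, 50.6% against 54.2% of all genes. The middle 50% of channel genes spanned 0.46 log2 units, and that of all genes 0.40. At the 2-fold rule 1 channel gene of 79 was higher and 0 were lower, where 2.51% of all genes were higher and 0.511% lower. At the 1.5-fold rule 7 were higher (8.86%, against 7.73% of all genes) and 4 were lower (5.06%, against 3.14%). Of these 11 genes 6 reached the median signal on 1 array only, so they passed the floor through the array on which they were high. The other 5 were at the floor on both arrays: Scn3b, Trpm2 and Hcn2 higher, Trpv4 and Scn9a lower. With the floor required on both arrays 3 of 67 channel genes were thus higher and 2 lower, where 6.48% of all genes were higher and 2.85% lower. At that floor the median difference of the channel genes was -0.03, against 0.02 over all genes.

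At the floor no calcium channel, chloride or store channel gene passed the 1.5-fold rule. In the potassium group 3 of 36 did, Kcna1, Kcnk13 and Kcnmb4, and each reached the floor on the transgenic array only, so that their direction follows from how they passed it. In the sodium group 2 of 5 were higher and 1 lower, and of these Scn7a reached the floor on 1 array. In the TRP group 1 of 12 was higher and 3 were lower, and of these Trpc4 and Trpm3 reached it on 1 array. The group medians were 0.06 for potassium, -0.03 for calcium, 0.45 for sodium, -0.11 for TRP and 0.09 for chloride channels. The TRP group had 9 of 12 negative differences, where 54.2% of all genes at the floor had a positive one. Those of Trpc2, Trpc7, Trpm5 and Trpm7 ran from -0.12 to -0.07. By the 1.5-fold rule 7.73% of all genes were higher and 3.14% lower.

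**Figure D2:**
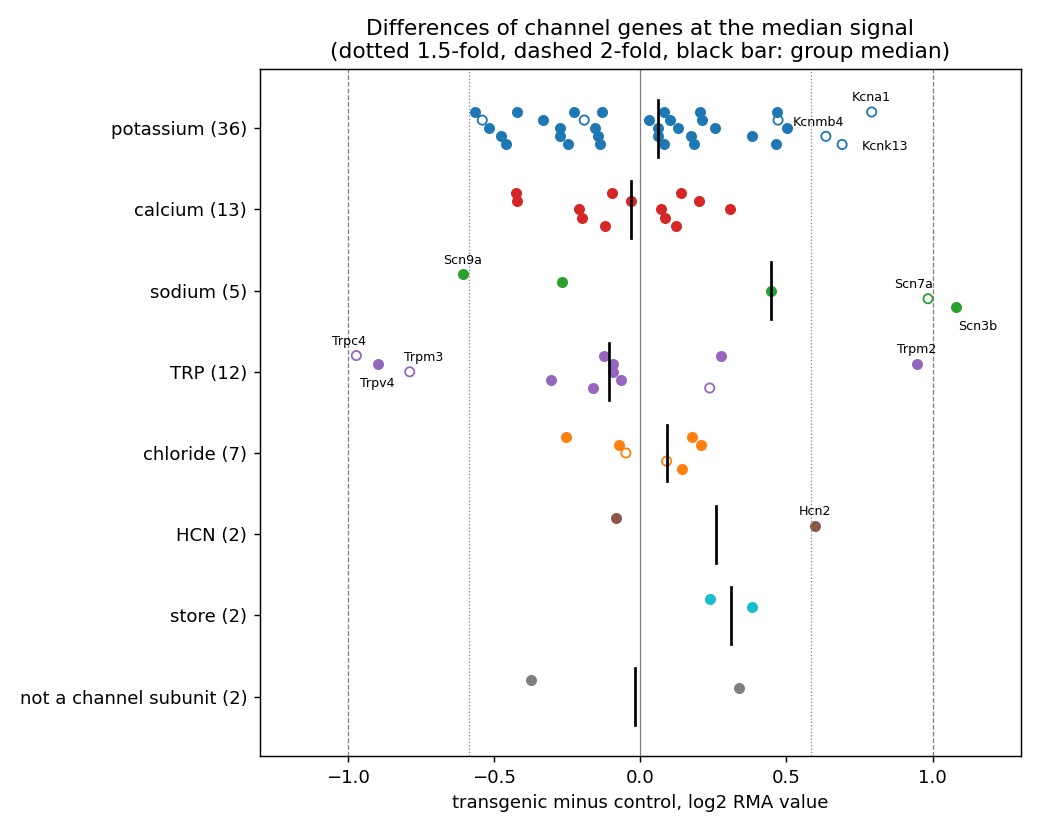
Transgenic minus control log2 value of the 79 channel genes that reach the median signal, by group, with filled points for genes that reach it on both arrays, open points for 1 array, black bars for group medians, dotted lines at 1.5-fold and dashed lines at 2-fold. The calcium and chloride points stay within -0.42 and 0.31, while sodium and TRP points run from -0.97 to 1.08.

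Sodium channels start the action potential. Scn3b, an auxiliary subunit that tunes the gating of the pore and is known in human cells as a gene induced by p53, read 7.40 on the transgenic array and 6.32 on the control array. The difference of 1.08 (2.11-fold) made it the only channel gene at the floor past the 2-fold rule. Its other probe set stayed below the median signal on both arrays, with a difference of -0.20. Scn7a, a sodium-sensing channel known from glia and Schwann cells, read 6.34 and 5.35, a difference of 0.98, with the control value below the floor. A further 2 probe sets of the gene, also below the floor, gave 0.57 and 0.29.

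Of the pore genes that carry sodium current, Scn9a, a main pore of mouse beta cells, was lower. It read 7.27 on the transgenic array and 7.88 on the control array, a difference of -0.61. All 5 of its probe sets had a negative difference, and the other one at the floor gave -0.73. Scn3a, also a pore of islet cells, read 6.58 and 6.84 (-0.27). Scn8a went the other way, at 7.35 and 6.91 (0.45), and a further pair of probe sets at the floor gave 0.26 and 0.28. Scn1a, Scn2a, Scn10a, Scn11a, Scn2b and Scn4b were below the median signal on both arrays.

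The Schwann cell markers Cdh19, Sox10 and S100b had differences of 1.63, 0.33 and 0.22, all positive, with S100b below the floor. The neuronal genes Elavl3, Snap25, Tubb3 and Stmn2 had differences of 0.39, -0.08, -0.22 and -0.30. The part of these cells in the value of Scn7a was not tested.

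TRP channels are cation channels opened by lipids, calcium, heat or stretch. Trpm2, opened by ADP-ribose and known in beta cells and in phagocytes, read 7.75 on the transgenic array and 6.81 on the control array, a difference of 0.95 (1.93-fold). Its other probe set was below the floor on both arrays, at -0.16. Macrophage markers were higher in the same sample, with a median difference of 0.84 and 9 of 10 positive, and their part in the value of Trpm2 was not tested.

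The 3 TRP genes past the 1.5-fold rule on the lower side were Trpc4, Trpv4 and Trpm3. Trpc4, a receptor-operated channel also known from endothelium, read 5.19 against 6.16 (-0.97), so its transgenic value was below the floor. Its 2 other probe sets, below the floor, were also negative, at -0.45 and -0.36. Trpv4, opened by cell swelling, read 5.76 and 6.66, a difference of -0.90 from its only probe set, with the transgenic value within 0.01 of the floor. Trpm3, opened by pregnenolone sulphate and heat, read 5.24 and 6.02 (-0.79). Its 5 other probe sets were below the floor and ran from -0.77 to 0.25, of mixed sign. The endothelial marker list had a median difference of 0.11, with 6 of 7 positive. The part of endothelial cells in the value of Trpc4 was not tested.

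The other TRP genes at the floor did not pass the 1.5-fold rule. Trpm5, a calcium-activated cation channel of beta cells and taste cells, read 9.84 and 9.93, and its 3 probe sets lay between -0.17 and -0.0047. Trpm7, a channel fused to a kinase, had a difference of -0.12, with 1 of its 3 other probe sets positive. Trpc1 stood at -0.16, and Trpm4, the close relative of Trpm5, at 7.21 and 7.52 (-0.30). Trpv2 stood at 0.28, Trpm6 at 0.24, Trpc7 at -0.07 and Trpc2 at -0.09. The capsaicin receptor gene Trpv1 was below the median signal on both arrays, as were Trpc5, Trpc6, Trpm1, Trpm8 and Trpv6.

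**Figure D3:**
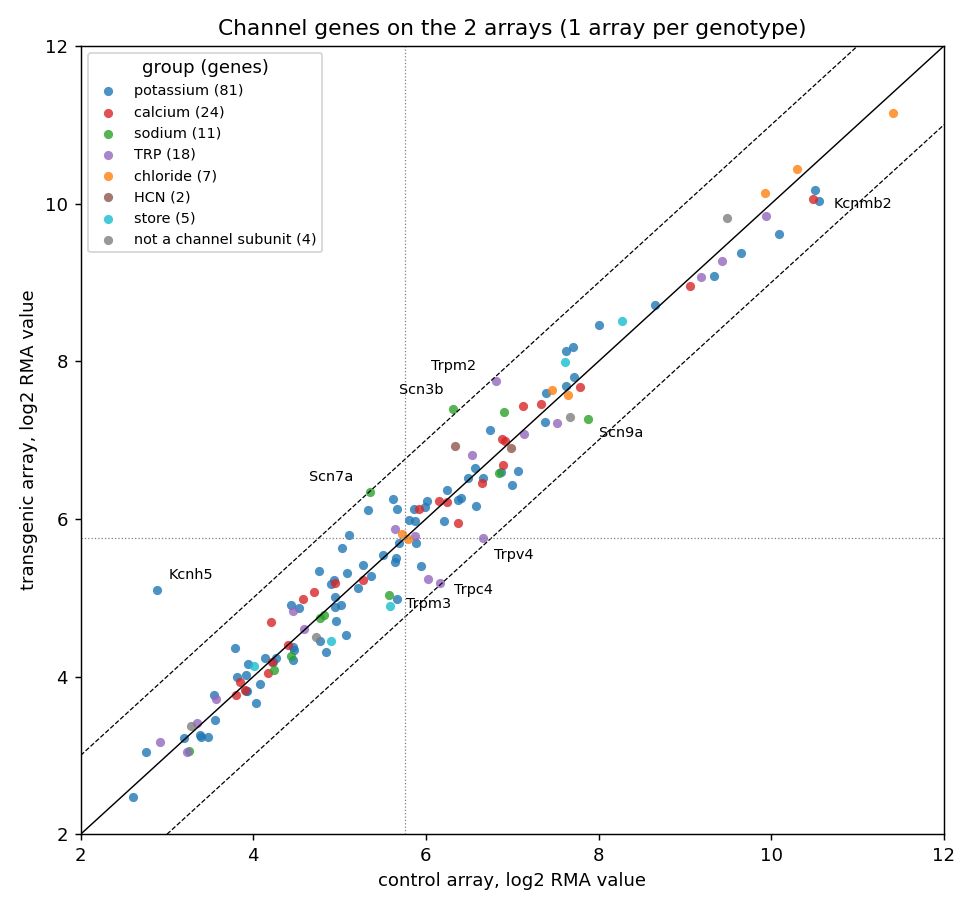
Log2 value of all 152 channel genes on the control array (horizontal axis) and the transgenic array (vertical axis), coloured by group, with the line of equality, dashed lines at 2-fold and dotted lines at the median signal of 5.76. Scn3b lies just beyond the 2-fold line, Kcnh5 is beyond it with both values below the median signal, and the genes of high signal lie along the line of equality.

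Potassium channels set the resting potential and end the action potential. Kcnj11 read 8.71 on the transgenic array and 8.65 on the control array, a difference of 0.06, and its second probe set, at the floor on the control array only, gave -0.36. The gene for its regulatory partner, the sulphonylurea receptor Abcc8, had 2 probe sets at 0.49 and 0.92. The other inward rectifiers at the floor, Kcnj4 and Kcnj12, stood at 0.08 and 0.21. Kcnj5 and Kcnj6 were below the median signal on both arrays.

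Tandem-pore channels were of both signs. Kcnk16, a leak channel of beta cells, read 10.17 and 10.50 (-0.33). Kcnk1 read 9.61 and 10.09 (-0.48), and its second probe set 6.79 and 7.41 (-0.61). Kcnk3, an acid-sensitive leak channel, stood at 0.08. Kcnk13, known from microglia, read 5.80 and 5.11, and the difference of 0.69 rests on a transgenic value just above the floor and a control value below it, with 0.15 from its other probe set. Kcnk12, Kcnk5 and Kcnk6 stood at 0.38, 0.17 and 0.10.

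Calcium-activated channels link repolarisation to calcium entry. Kcnma1 and Kcnn4 were the calcium-activated pore genes at the floor, and both had positive gene values. Kcnn4, of intermediate conductance and known in islets and in blood cells, read 8.12 and 7.62 (0.50), with its other probe set below the floor at 0.45. Kcnu1, a relative of Kcnma1 that is not opened by calcium, stood at 0.47 from 1 probe set. Kcnma1 read 8.4623 and 7.9996 (0.46), but 3 more probe sets at the floor gave 0.21, 0.01 and -0.02. Its auxiliary genes differed in sign. Kcnmb2, which inactivates the channel, read 10.04 and 10.56 (-0.52, other probe set -0.15). Kcnmb4 read 6.26 and 5.62 (0.63), with the control value below the floor.

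The 14 voltage-gated pore genes at the floor had 6 positive and 8 negative differences. Kcna1, a fast delayed rectifier of axons, had the largest of these, at 6.12 and 5.32 (0.79), with the control value below the floor. All 4 of its probe sets were positive, and 1 of them, at 6.20 and 4.61, differed by 1.59. Kcnh2 stood at -0.25, Kcnh1 at 0.06, Kcnh3 at 0.20, Kcnq1 at -0.14 and Kcnc2 at 0.13. Kcns3, a silent subunit that acts with other pores, had a difference of -0.54 with the transgenic value below the floor. Kcnd3, an A-type pore, was below the median signal on both arrays, as was the small-conductance gene Kcnn3.

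Of the proteins that bind the A-type pores, 3 of 4 Kcnip genes had negative differences. Kcnip1 read 9.38 and 9.65 (-0.27), and its 3 other probe sets were negative too, from -0.55 to -0.08. Kcnip2 stood at -0.46, Kcnip3, which is also a calcium-binding transcriptional repressor, at -0.42 and Kcnip4 at 0.03, which became -0.0011 after a second quantile normalization. Kcnd1, the 1 gene of the Kcnd family at the floor, stood at -0.27. Of the beta subunits of Kcna channels, Kcnab3 stood at -0.56, with 0.13 from its other probe set, also at the floor, and Kcnab2 at 0.47. None of these gene values passed the 1.5-fold rule. After a second quantile normalization Kcnab3 was at -0.60, past the rule.

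Calcium channels trigger insulin release. Cacna1d and Cacna1c, the L-type pores of beta cells, stood at -0.09 and 0.12, with Cacna1d at 8.96 and 9.05. Cacna1a, the P/Q-type pore, read 7.44 and 7.13 (0.31), and all 4 of its probe sets were positive, from 0.15 to 0.49. Cacna1b, the N-type pore, stood at -0.21 and Cacna1h, a T-type pore, at 0.20. Cacnb2, a cytosolic subunit that brings the pore to the membrane, stood at -0.12. Cacna1f, the pore gene furthest on the lower side of this group, read 5.94 and 6.37 (-0.42) from its only probe set. Cacna1e, the R-type pore, was below the median signal on both arrays.

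The calcium channel gene with the widest spread between probe sets was Cacna2d1, an extracellular subunit that raises surface expression of the pore and binds gabapentin. Its gene value came from a probe set at 10.06 on the transgenic array and 10.48 on the control array (-0.42). A second one read 7.53 and 9.11, a difference of -1.58, and was the only channel probe set at the floor past the 2-fold rule on the lower side. The remaining pair at the floor gave -0.66 and -0.21, and the probe set below it 0.06. The related Cacna2d2 stood at 0.09.

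The chloride and store channel genes at the floor all had gene values that differed by less than 1.5-fold. Clcn3, Clcn4 and Clcn5, exchangers of endosomes and granules, stood at -0.25, 0.21 and 0.14. The 3 other probe sets of Clcn5 were negative, with -0.17 at the floor and a pair at -0.32 below it, and the 5 probe sets of Clcn3 ran from -0.44 to 0.04. Clcn7, of lysosomes, stood at 0.18, although a second probe set at the floor gave -0.46. Itpr2 read 7.99 and 7.61 (0.38) and Itpr3 8.51 and 8.27 (0.24). The probe sets of Itpr2 were of mixed sign. Ryr1 (-0.44), Ryr2 (0.13) and Ryr3 (-0.69) were below the median signal on both arrays. Of the pacemaker channels Hcn2 read 6.93 and 6.33 (0.60), past the 1.5-fold rule from its only probe set but at 0.57, short of it, after a second quantile normalization, and Hcn3 stood at -0.08.

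**Figure D4:**
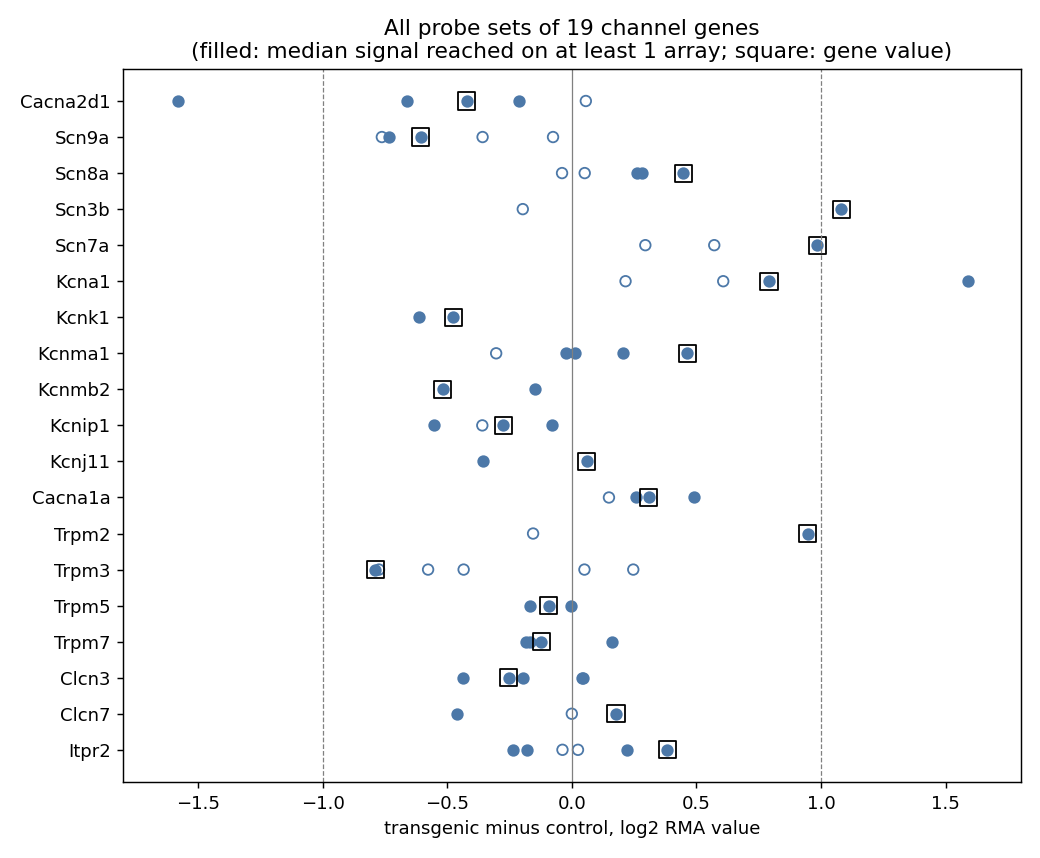
Transgenic minus control log2 value of every probe set of selected channel genes, with filled points where the median signal is reached on at least 1 array, open points where it is not, squares around the gene value and dashed lines at 2-fold. The probe sets of Scn9a lie on the lower side and those of Kcna1 on the higher side, Cacna2d1 spans -1.58 to 0.06, and Scn3b and Trpm2 have probe sets on both sides of 0.

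Several probe sets for 1 gene measure a single RNA sample and cannot serve as replicates. Among 26 channel genes with several probe sets at the floor, those of 16 (61.5%) were all of 1 sign, against 58.2% over all genes, and the median gap between the lowest and highest was 0.29, against 0.28.

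The 73 channel genes below the median signal on both arrays had a median difference of -0.04. Kcnh5, a voltage-gated pore, differed by 2.21 there, at 5.10 and 2.89, and Kcnj8, the vascular pore of ATP-sensitive channels, by -0.69.

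Other genes of excitation and calcium handling were read in the same way. Of 50 listed genes 41 had a value and 37 of these reached the median signal, where 66.7% of all genes did. Their median difference was 0.06. By the 1.5-fold rule 2 were higher (5.41%, against 7.73% of all genes) and 1 lower (2.7%, against 3.14%). At the 2-fold rule 0 passed, where 2.51% of all genes were higher and 0.511% lower. Dpp6, an auxiliary protein of A-type potassium channels, read 8.32 and 7.37 (0.95), and its other probe set gave 0.19. Orai2, a pore of store-operated calcium entry, read 7.18 and 6.45 (0.73, other probe set 0.39). Rem2, a small GTPase that inhibits voltage-gated calcium channels, read 8.47 and 9.08 (-0.61, other probe set -0.43). Just short of the rule were Slc12a2, the importer that loads beta cells with chloride, at 0.57 (other probe sets 1.09 and 0.11, all at the floor), and the sodium leak channel gene Nalcn at -0.57 (other probe set -0.30). The glucose transporter gene Slc2a2 stood at -0.33, and Gjd2, which couples beta cells electrically, at -0.22.

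Zeb1 and Zeb2, repressors that are known miR-200 targets, bind E-boxes, so the promoters of the channel genes past the 1.5-fold rule were searched for CAGGTG and for its reverse complement CACCTG. The windows run from 250 bases before to 50 bases after the start of the gene in RefSeq (GRCm38.p6). Of the 11 genes 9 had a window, all but Scn3b and Kcna1, and 5 of these 9 held the box: Trpv4, Trpm3, Scn9a, Hcn2 and Kcnk13. Trpm3 also had a window without the box. Of all genes with a window 22.6% held it, and of the 121 channel genes with a window 29.8%. Counted by window it was 20.2% of all 32851 windows, 25.6% of 164 windows of channel genes and 5 of 10 windows of genes past the rule. These last 10 windows had a median GC content of 62.15%, against 52.7% over all windows, and its part in the count was not tested. The windows of the lower gene Trpv4 (chr5:114658372-114658671, minus strand) and the higher gene Kcnk13 (chr12:99964249-99964548, plus strand) are shown as those furthest apart in difference among the genes with the box, which is in capitals.
Trpv4: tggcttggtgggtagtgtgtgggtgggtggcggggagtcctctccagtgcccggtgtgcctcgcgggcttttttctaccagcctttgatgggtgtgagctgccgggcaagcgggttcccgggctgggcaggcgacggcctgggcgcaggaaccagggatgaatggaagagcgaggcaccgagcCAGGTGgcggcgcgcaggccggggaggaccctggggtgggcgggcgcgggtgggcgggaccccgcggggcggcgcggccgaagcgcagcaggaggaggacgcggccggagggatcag
Kcnk13: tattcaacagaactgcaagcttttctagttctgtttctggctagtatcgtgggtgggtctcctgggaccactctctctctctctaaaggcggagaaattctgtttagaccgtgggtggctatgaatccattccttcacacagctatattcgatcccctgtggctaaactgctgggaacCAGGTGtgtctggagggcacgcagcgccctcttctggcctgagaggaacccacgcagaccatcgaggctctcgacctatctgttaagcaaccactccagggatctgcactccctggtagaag
The box starts at position -67 from the start site in Trpv4 and at -72 in Kcnk13. The genes with the box included higher and lower ones, and a match of letters is a description and not a binding site. All were picked by their difference on the same arrays, so their share with the box is no test. Trpm3 and Kcnk13 reached the floor only on the array on which they were high.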

How the data were processed

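Total RNA of islets was labelled with biotin and read on 1 Affymetrix array per genotype, 2 arrays in all, and each sample took its group from the genotype label. The deposited values are log2 expression values, made by the authors with RMA in Affymetrix Expression Console per the submitters' processing notes; which versions were run is not given in the sources used here. This method corrects background, brings arrays to a common distribution and summarises probes. The precision is limited by the number of arrays.

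Probe sets with 1 symbol in the platform table were used (34945 of 45101), with symbols updated by Entrez identifier to the GRCm38.p6 gene table, where all 152 channel genes matched. A gene took its probe set with the highest mean and was kept when at least 1 array reached 5.76. No test was planned or run. Genes named are those past the 1.5-fold rule, the furthest in each group and a fixed list of 52 (45 with a value, 35 at the floor); other genes named were chosen after their values were seen. Members and lists were chosen with earlier results of these data known. The gene summary was tested on simulated arrays with planted differences. As alternatives, probe sets of a gene were averaged, those with _s, _x or _a names were dropped, and the rest were no floor, a floor at the 75th percentile or on both arrays, a lowess trend (span 0.3, statsmodels 0.14.6) and a second quantile normalization. Python 3.11.15, numpy 2.4.6 and pandas 2.3.3 were used. Genes of the fixed list without a value were not analysed here.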

Additional observations from a re-analysis of the deposited data

Results flagged for a closer look

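The comparison of genes used 1 probe set per gene, and among the probe sets it left out 1 reached the median signal and was at least 2-fold above the control array. This was a probe set of Kcna1, at 6.20 on the transgenic array and 4.61 on the control array, a difference of 1.59, with the control value below the floor. The gene value of Kcna1 was 0.79. Groups of 1 array allow no search for outlying samples.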

How the results depend on the processing

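The median difference of the channel genes stayed within -0.095 and 0.039 under the 7 alternatives, and its sign was not stable. The median over all genes ran from 0.003 to 0.025 under the same alternatives. Of the 11 genes past the 1.5-fold rule, 11 stayed past it with the lowess trend subtracted, 10 with a second quantile normalization, where Hcn2 became 0.57, 10 without the _s, _x and _a probe sets, where Trpc4 became -0.36, and 6 with probe sets averaged, before any floor. The count at the 2-fold rule, 1 as reported, was 0 with probe sets averaged and 0 with the floor at the 75th percentile, and 2 with no floor and 2 with the lowess trend subtracted. The count at the 1.5-fold rule fell from 11 to 3 with probe sets averaged, to 1 with the floor at the 75th percentile, where Scn9a alone was left, and to 5 with the floor on both arrays. With no floor this count was 15. Scn9a reached the 75th percentile on the control array only (7.27 transgenic, 7.88 control), so its direction there follows from how it passed. With probe sets averaged the number of channel genes at the same floor fell from 79 to 55, and that of all genes from 12143 to 10858. The number of channel genes was 21 with the floor at the 75th percentile. Fewer genes pass a stricter floor by construction. Among the genes past the 1.5-fold rule, the other probe set turned the sign of Scn3b (-0.20) and Trpm2 (-0.16), and for Trpm3 a pair did (0.051 and 0.25). These probe sets were below the floor on both arrays, and the cause was not tested. Of 19 other probe sets of the genes past the rule, 5 were past it too. For some genes short of the rule, other probe sets at the floor had the opposite sign. Examples were Itpr2 (0.38, others at the floor 0.22, -0.18 and -0.24), Clcn7 (0.18, other -0.46) and Kcnab3 (-0.56, other 0.13). Without the _s, _x and _a probe sets Itpr2 became -0.18 and Clcn3, at -0.25 as reported, became 0.04. No paired analysis was possible because each genotype has 1 array. Signal over background could not be assessed, since the values carry no detection call.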

Other observations

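Channel genes that lie next to each other on a chromosome did not always differ in the same direction. Scn9a (-0.61) and Scn7a (0.98) are neighbours on chromosome 2 and lie on opposite sides. Kcna1 (0.79) lies on chromosome 6 between Kcna5 (0.58) and Kcna6 (0.29), which were positive but below the median signal on both arrays. On chromosome 14 Kcnk5 (0.17) and Kcnk16 (-0.33) had opposite signs, and on chromosome 7 Kcnj11 (0.06) lies beside Abcc8 (0.49) and Trpm5 (-0.09) beside Kcnq1 (-0.14). The order of genes was taken from the GRCm38.p6 gene table, over protein-coding genes.

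Of the genes taken in by the symbol pattern that encode no channel subunit, Trpc4ap read 9.82 on the transgenic array and 9.48 on the control array (0.34) and the imprinted antisense transcript Kcnq1ot1 7.29 and 7.67 (-0.37), while Kcnmb4os1 and Kcnmb4os2 were below the median signal on both arrays. A pair of probe sets that carry Trpc2 together with another gene symbol gave -0.23 and -0.06.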
